A study of Mus musculus with 2 samples.

Results

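Erythroid transcription factors and regulators are genes that act in the red cell and platelet lineages or in their progenitors. The 10 examined here are Gata1, Gata2, Tal1, Lmo2, Zfpm1, Klf1, Nfe2, Gfi1b, Bcl11a and Epor. They were chosen by name, with earlier results of these data known. All 10 had at least 1 array probe whose transcript accession matched the gene, 12 probes in all, out of 13716 genes measured. Each of the 12 probes was well above background on both arrays, and none was saturated. The study compared spleens of male mice labelled as knock-out for Loxl3 (Loxl3-/-) with spleens of male wild-type mice (Loxl3+/+), and the animals of both groups were healthy and untreated. Each group has 1 array, hybridised with Cy3-labelled total RNA of fresh whole spleen. Age, strain, the kind of Loxl3 allele and whether RNA of several animals was pooled are not stated in the labels. Loxl3 encodes a lysyl oxidase, an enzyme family known for crosslinking collagen and elastin.

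In mice the spleen makes red cells and platelets beside the bone marrow, and the red pulp holds erythroblasts and megakaryocytes. GATA2 acts in progenitors and mast cells, and GATA1 takes its place on chromatin as erythroid cells mature, an exchange known as the GATA switch. GATA1 works in a complex with TAL1, LMO2 and LDB1 and with the cofactor FOG1, encoded by Zfpm1, while KLF1 and NF-E2 drive globin and other late genes and the erythropoietin receptor keeps the precursors alive. In a bulk tissue sample fewer cells of a type and less RNA per cell cannot be told apart.

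Regions around the transcription start of 5 members are printed first, because GATA factors are known to bind their own genes and each other's. RefSeq windows of 300 bases, from 250 before to 50 after a start, on the mouse build GRCm38.p6, were at hand for 8 of the 10 members, as 10 windows. Gata1 and Tal1 had the lowest values of these 8, Klf1 the highest, and Gfi1b and Epor are shown because their windows also hold a GATA match. The sequences run 5′ to 3′ on the gene's own strand, and capitals mark the letters AGATAA or TGATAA, read on either strand (TTATCT and TTATCA on the other).
Gata1, chrX:7967861-7968160, minus strand: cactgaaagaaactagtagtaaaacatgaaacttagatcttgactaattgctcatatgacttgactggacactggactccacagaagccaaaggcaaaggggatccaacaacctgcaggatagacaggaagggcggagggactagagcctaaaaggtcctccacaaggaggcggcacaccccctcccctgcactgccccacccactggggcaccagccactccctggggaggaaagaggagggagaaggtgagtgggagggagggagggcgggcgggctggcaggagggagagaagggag
Tal1, chr4:115056176-115056475, plus strand: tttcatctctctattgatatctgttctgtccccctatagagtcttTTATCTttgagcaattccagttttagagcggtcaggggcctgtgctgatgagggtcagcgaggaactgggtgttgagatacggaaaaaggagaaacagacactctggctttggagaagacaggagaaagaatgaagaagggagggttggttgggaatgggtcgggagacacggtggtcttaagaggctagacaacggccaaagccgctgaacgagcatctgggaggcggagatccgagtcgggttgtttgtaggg
Gfi1b, chr2:28621933-28622232, minus strand: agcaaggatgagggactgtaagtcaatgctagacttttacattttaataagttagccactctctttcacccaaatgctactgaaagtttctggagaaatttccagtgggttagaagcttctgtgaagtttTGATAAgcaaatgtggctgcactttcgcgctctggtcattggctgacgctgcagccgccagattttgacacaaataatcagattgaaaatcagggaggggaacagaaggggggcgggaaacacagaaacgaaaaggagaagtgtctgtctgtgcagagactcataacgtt
Klf1, chr8:84901732-84902031, plus strand: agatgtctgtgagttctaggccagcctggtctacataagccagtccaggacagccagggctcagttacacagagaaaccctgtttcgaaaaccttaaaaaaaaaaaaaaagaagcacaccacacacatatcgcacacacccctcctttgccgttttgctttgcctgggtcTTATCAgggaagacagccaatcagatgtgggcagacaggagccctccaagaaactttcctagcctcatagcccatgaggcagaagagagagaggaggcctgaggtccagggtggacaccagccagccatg
Epor, chr9:21963527-21963826, minus strand: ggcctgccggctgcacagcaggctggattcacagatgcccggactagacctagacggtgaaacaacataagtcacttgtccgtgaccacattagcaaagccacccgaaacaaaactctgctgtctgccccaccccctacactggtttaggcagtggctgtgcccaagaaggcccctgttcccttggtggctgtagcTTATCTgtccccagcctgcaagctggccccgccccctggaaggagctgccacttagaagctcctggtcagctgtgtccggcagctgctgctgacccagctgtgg

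The GATA letters stood in 4 of the 10 windows, against 18.6% of all 32851 windows in the RefSeq table. In Gfi1b they lay at −120 to −115, in Klf1 at −80 to −75, in Epor at −54 to −49 and in Tal1 at −205 to −200, counted from the start site with no position 0. AGATAA alone was in 11.2% of all windows and TGATAA in 9.05%. The Gata1 window held neither, nor did the other Tal1 window, at a later start, which is not printed. The E-box letters CATCTG, of the kind that TAL1 binds with E proteins, were in the printed windows of Tal1, Klf1 and Epor and in 17.2% of all windows. CAGCTG was in the Epor window (at 3 places), in a Gata2 window and in 16.3% of all. No E-box match overlapped a GATA match. The KLF letters CCNCNCCC were common, in 8 of the 10 windows and 49.5% of all, and in some windows overlapped themselves. These matches are letters in a window, and the arrays do not measure binding there.

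Transcript levels of Tal1, Gata1 and Nfe2 were 0.451, 0.460 and 0.470 times as high in knock-out-labelled spleen as in wild-type spleen, and Klf1 was higher, at 1.66 times. Gfi1b and Epor were lower by less, at 0.549 and 0.620 times. Lmo2 was at 0.814 times, and Zfpm1, Bcl11a and Gata2 were within 1 error of no difference. So 3 of 10 members were at least 2-fold lower and 0 were at least 2-fold higher. Over all 13716 genes, 1.98% were at least 2-fold lower and 2.11% at least 2-fold higher. The members' median log2 difference, knock-out-labelled minus wild type, was −0.49, beside −0.09 over all genes. In the main setting 8 of 10 members were below 0, against 59.1% of all genes, and 6 of 10 were below the median of all genes. The count below 0 was 6 to 9 over 11 other settings, and 5 without scaling between the arrays. With 1 array per group there is no replicate and no test, so these values describe 2 arrays. Because the set was chosen with earlier results of these data known, its shares are not an unbiased contrast with all genes.

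The arrays give a processed signal, the background-corrected brightness of a probe in linear units, and differences are on the log2 scale after each array was set to its own 75th percentile of probe signals, 1400 for the knock-out-labelled array and 974 for the wild-type one. That step moved every difference by 0.52. Errors after ± are those the scanner software gave for a spot, carried to the log2 difference. They leave out all variation between animals. For 268 other probes printed at least 5 times, the SD of the log2 difference between a probe's spots was 0.112 in the median. A single array per group limits the precision of every value.

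**Figure D1:**
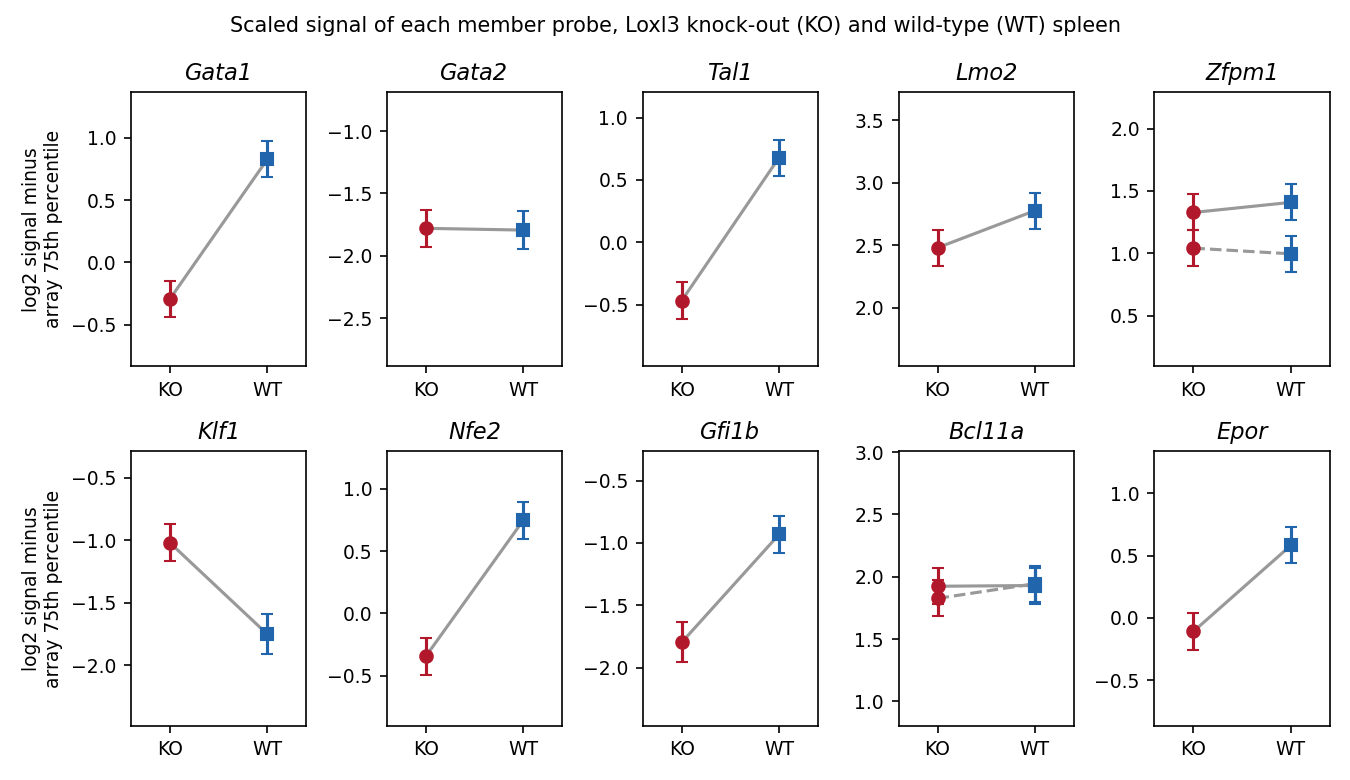
Log2 processed signal minus the array's 75th percentile (vertical axis) of each probe of the 10 regulators on the knock-out-labelled (KO, circles) and wild-type (WT, squares) arrays, with the software's error as bars. Every panel spans the same height, a second probe of Zfpm1 and Bcl11a has a dashed line, and the lines of Tal1, Gata1 and Nfe2 climb by more than 1 toward WT while that of Klf1 drops by 0.73.

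The GATA pair differed from each other. Gata1, the master factor of red cells and megakaryocytes, had a signal of 1142 in knock-out-labelled and 1727 in wild-type spleen, a log2 difference of −1.12 ± 0.21. For Gata1 the wild-type signal was the brighter before scaling as well as after it. Gata2, the factor of progenitors and mast cells, had signals of 408 in knock-out-labelled and 281 in wild-type spleen, a difference of 0.01 ± 0.21. For Gata2 the whole of the raw excess on the knock-out-labelled array was the size of the general shift between the arrays. Relative to Gata1, Gata2 was 2.19-fold higher in knock-out-labelled spleen, a log2 contrast of 1.13 ± 0.30. A contrast between genes on the same pair of arrays does not depend on any factor common to an array. It can move only where signals are changed by their level or their background, and it was 1.003 with quantile normalization, 1.01 with the loess trend removed and 1.19 with normexp background correction.

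The partners of GATA1 in its DNA-bound complex were split. Tal1, the basic helix-loop-helix factor that binds E-boxes, had signals of 1012 in knock-out-labelled and 1560 in wild-type spleen and a difference of −1.15 ± 0.21, the lowest of the 10. Lmo2, the bridging protein that binds no DNA itself, had signals of 7809 in knock-out-labelled and 6680 in wild-type spleen, a difference of −0.30 ± 0.20. Lmo2 is also expressed in germinal centre B cells and endothelium. Zfpm1, encoding FOG1, had signals of 3513 and 2881 in knock-out-labelled spleen with its 2 probes, against 2586 and 1943 in wild-type spleen. Their differences were −0.08 ± 0.20 and 0.05 ± 0.20, of opposite sign and both inside the error. Of these genes, Gata1 and Tal1 were at least 2-fold lower in the main setting and Lmo2 and Zfpm1 were not. With scaling on probes above background on both arrays, Gata1 was at −0.97, short of 2-fold.

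Transcripts of other proteins known to join these complexes differed by less than 2-fold in the main setting. Ldb1, which dimerises the complex, was at −0.32 ± 0.20 and Lyl1, the closest relative of Tal1, at −0.40 ± 0.20. Tcf3, encoding the E proteins that pair with TAL1, was at −0.60 by the brighter of its probes and at 0.16 by the dimmer. Cbfa2t3, a corepressor of the complex, was at 0.11 by its brightest probe, and Runx1, a partner of GATA1 in megakaryocytes, was higher at 0.53 ± 0.21, with 0.27 from its other probe.

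Klf1 and Nfe2, which both act late in red cell maturation, differed in direction. Klf1, a zinc finger activator needed for adult beta-globin expression, had a signal of 691 in knock-out-labelled and 289 in wild-type spleen. Its difference was 0.73 ± 0.22, short of 2-fold, and 646 of the 13716 genes were as high or higher. Nfe2, encoding the p45 subunit of NF-E2 that is needed for platelet release, had signals of 1103 in knock-out-labelled and 1634 in wild-type spleen, a difference of −1.09 ± 0.20. Nfe2 pairs with small MAF proteins, of which Mafk was at −0.28 ± 0.20 and Mafg at −0.39 with its brightest probe, its other probes at −0.43 and 0.25. Relative to Nfe2, Klf1 was 3.54-fold higher in knock-out-labelled spleen (log2 contrast 1.82 ± 0.30). Klf1 stood above each of the other 9 members by more than 2 errors, by between 0.72 (Gata2) and 1.88 (Tal1). Klf1 was read by 1 probe on 1 spot per array.

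The repressors and the receptor completed the set. Gfi1b, a repressor needed by both the red cell and platelet lineages, had signals of 403 in knock-out-labelled and 510 in wild-type spleen and a difference of −0.87 ± 0.22. Its partners in the demethylase corepressor complex, Kdm1a and Rcor1, were at −0.15 and, with its brighter probe, −0.16, and the other probe of Rcor1 was at 0.58. Bcl11a, which silences fetal and embryonic globin genes and is also needed by B cells and plasmacytoid dendritic cells, had signals of 5312 and 4965 in knock-out-labelled spleen with its 2 probes, against 3712 and 3751 in wild-type spleen. The differences were −0.01 ± 0.20 and −0.12 ± 0.20. Epor, the erythropoietin receptor gene, had signals of 1299 in knock-out-labelled and 1458 in wild-type spleen, a difference of −0.69 ± 0.20. The raw Epor signals differed little, at a log2 difference of −0.17. Relative to the median of all genes, Epor was at −0.60 both in the main setting and without scaling.

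**Figure D2:**
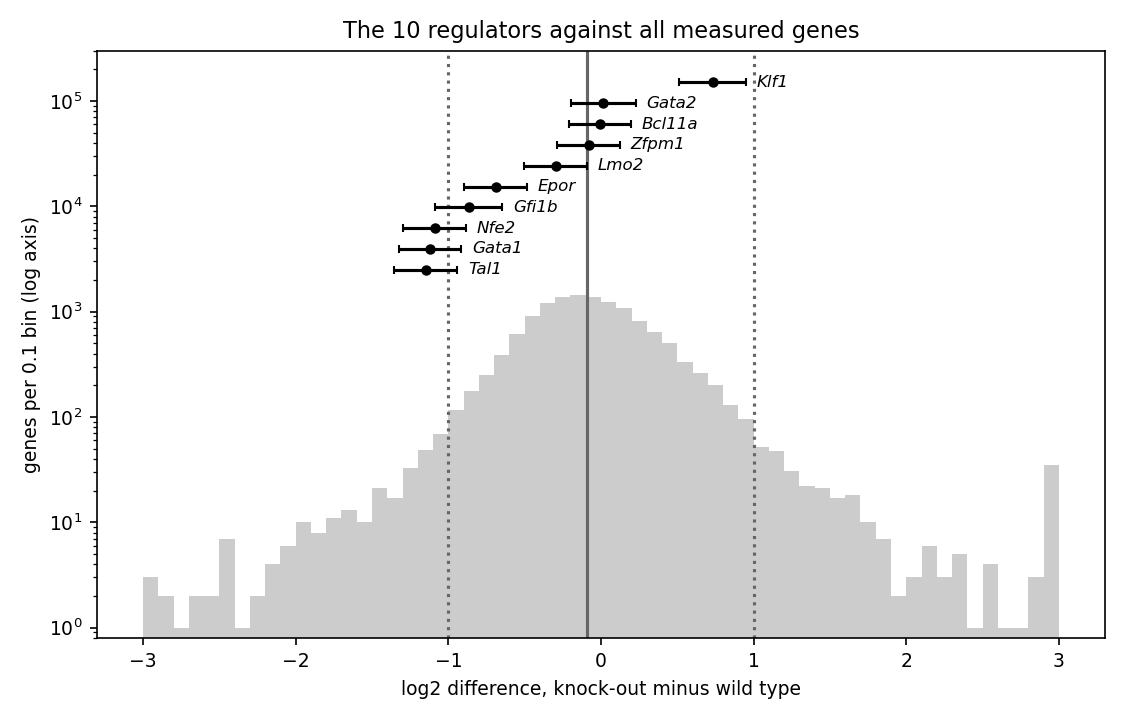
Log2 difference, knock-out minus wild type (horizontal axis), of all 13716 measured genes as a histogram with a log vertical axis (genes per bin of 0.1, values beyond ±3 placed in the end bins), and above it the 10 regulators with the software's error as bars, set at arbitrary heights. The solid line is the median of all genes (−0.09) and the dotted lines are 2-fold, and Tal1, Gata1 and Nfe2 lie beyond the lower one.

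Among all genes ordered from the lowest difference, Tal1 was at place 182, Gata1 at 194 and Nfe2 at 208 of 13716, within the lowest 1.33%, 1.41% and 1.52%. Gfi1b was at place 439 and Epor at 841. Among the 5 lowest members, the contrast was under 2 errors in all 10 pairs, which does not show that they are equal. Of all 45 pairs of members, 27 differed by more than 2 errors. The members' range was 1.88 on the log2 scale, from Tal1 to Klf1, and with the software's error of about 0.20 per gene the spread within the set was the larger.

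The call of 2-fold for Tal1, Gata1 and Nfe2 rests on the scaling. Without any scaling between the arrays, a setting added after the data were seen, they were at −0.62, −0.60 and −0.57 and Klf1 at 1.26, so that 5 members were above 0, 5 below, 1 was 2-fold higher and 0 were 2-fold lower. In that setting the median of all genes was itself at 0.43 and 1397 genes were 2-fold higher against 80 lower, so 94.6% of the 2-fold genes were higher, against 51.7% in the main setting. With the 75th percentile taken over probes that cleared background on both arrays, 71.0% of the 2-fold genes were higher and 1 member, Tal1, was 2-fold lower at −1.002. Scaling on the array medians gave 39.0% higher and the same count of 3 lower members. Relative to the median of all genes, Tal1 ranged from −1.12 to −0.95, Gata1 from −1.14 to −0.99, Nfe2 from −1.06 to −0.96 and Klf1 from 0.61 to 0.86 over 11 settings.

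**Figure D3:**
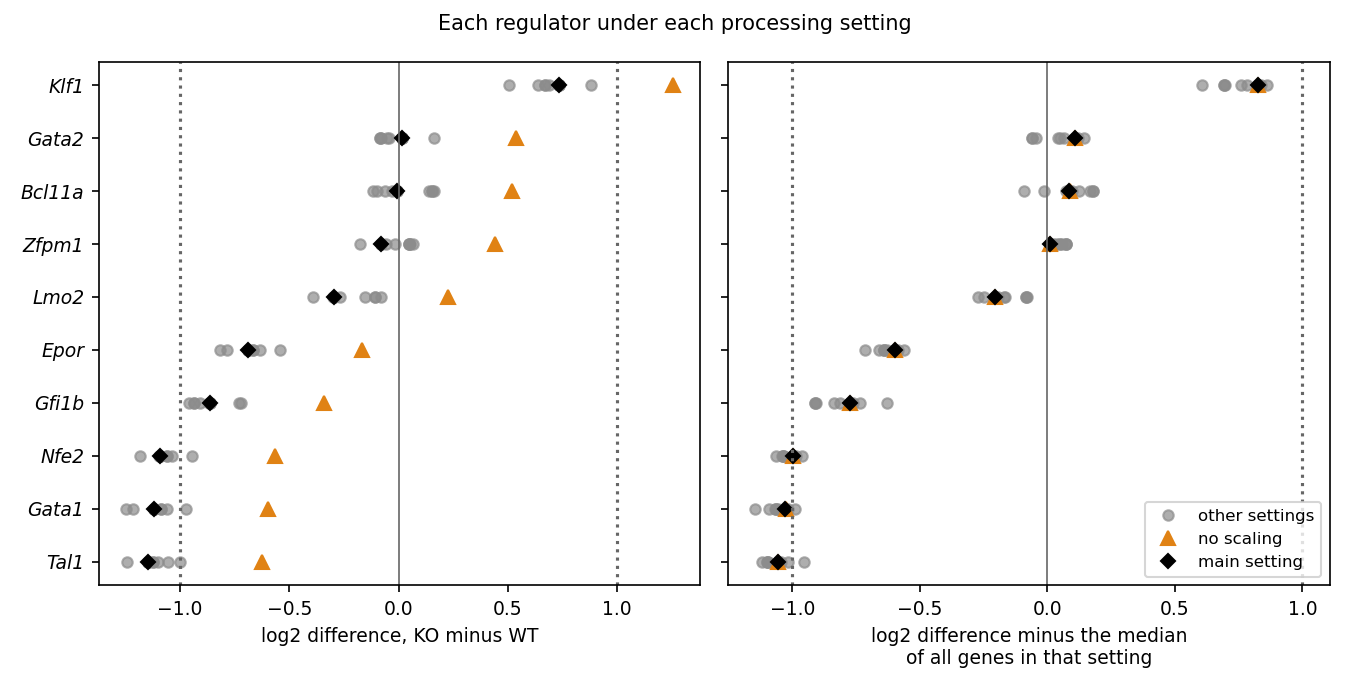
Log2 difference of each regulator under the main setting (diamonds), 11 other settings (grey circles) and no scaling (triangles), on the left as computed and on the right after subtracting the median of all genes in that setting. Dotted lines are 2-fold. On the left the triangles sit about 0.52 to the right of the diamonds, and on the right they fall on them.

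Red cell genes known as targets of GATA1 and KLF1 were mostly lower by small amounts. Of 44 listed genes, 42 had a probe and 38 were measured, of which 3 were at least 2-fold lower and 0 at least 2-fold higher. Their median was −0.38 and 31 of 38 were below 0. The median stayed between −0.48 and −0.24 under 11 other settings, where 2 to 5 genes were 2-fold lower, and was 0.14 without scaling, where 1 was. Hbb-b2, an adult beta-globin gene, had signals of 19977 in knock-out-labelled and 46226 in wild-type spleen, a difference of −1.73 ± 0.20. Rhd, of the Rhesus blood group protein, was at −1.09 ± 0.20, and Dmtn, encoding the membrane skeleton protein dematin, cleared background in wild-type spleen only, where it was at least 2.30-fold higher. The other beta-globin genes did not follow Hbb-b2, with Hbb-bt at −0.58 and Hbb-bs at 0.02, and because these genes are near-identical copies whose content also differs between mouse strains their probes may share signal. Among genes for haem synthesis, Alas2, the first and erythroid-specific step, was at 0.10 ± 0.20, Urod at −0.52 and Fech at −0.17. Slc4a1, the band 3 anion exchanger and a target of KLF1, was at −0.82. Ank1, Sptb, Rhag and Trim58 did not clear background on either array, and Hbb-b1 and Ahsp had no matched probe.

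Megakaryocyte genes, which depend on GATA1, TAL1, GFI1B and NF-E2, were mostly lower as well. Of 19 measured, 12 were at least 2-fold lower and 0 at least 2-fold higher, with a median of −1.19, and the median was between −1.36 and −1.04 under 11 other settings and −0.67 without scaling, where 7 were 2-fold lower. Rab27b, for platelet granule transport and a known target of NF-E2, was at −1.93 ± 0.21 and −2.27 with its 2 probes. Treml1, a platelet granule receptor gene, was at −1.91 ± 0.20 and Gp1ba, of the von Willebrand factor receptor, at −1.86 ± 0.21. Itga2b, a classical GATA1 target in megakaryocytes, was at −0.76. Tubb1, the platelet tubulin gene that NF-E2 controls, was at −0.50 ± 0.25. Fli1, another megakaryocyte factor, was not among the lower genes, at 0.31.

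Signalling genes around the erythropoietin receptor differed by less than 2-fold in the main setting. Of 16 listed signalling genes 14 were measured, 0 were at least 2-fold higher or lower, and their median was −0.22. Its sign depended on the setting, from −0.33 to 0.08 over 11 settings and 0.31 without scaling. With array medians and with normexp 1 gene was 2-fold lower, and without scaling 1 was 2-fold higher. Stat5a, a main transducer of the receptor, was the lowest at −0.91 ± 0.20, while Stat5b was at −0.28 and the kinase gene Jak2 at −0.39. Kit, the stem cell factor receptor gene, repressed by GATA1 during maturation, was the highest at 0.58 ± 0.21. Epo itself, made in kidney, did not clear background on either array, nor did Erfe, encoding the erythroid hormone erythroferrone.

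Among 23 other erythroid regulators measured, 0 passed 2-fold in either direction and the median was −0.14 (−0.23 to 0.01 over 11 settings, 0.39 without scaling, where 2 were 2-fold higher). E2f4, a cell cycle factor needed for red cell maturation, was the highest at 0.74 ± 0.21, close to Klf1, and it is named for this after its value was seen. Myb, which holds progenitors in an immature state, was at −0.31, Bach1, the haem-sensing repressor that competes with NF-E2, at 0.14, and Sox6, which acts with BCL11A, at −0.06. Zbtb7a, another globin silencer, was at −0.30 by the brighter of its probes and at 0.55 by the dimmer. Of 10 regulators of other lineages, 1 was 2-fold lower. This was Cebpe, of granulocyte maturation, at −2.49 ± 0.21, while Gfi1, the paralogue of Gfi1b in granulocytes and lymphocytes, was at −0.83 and Spi1, the antagonist of GATA1 in myeloid cells, at 0.46.

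**Figure D4:**
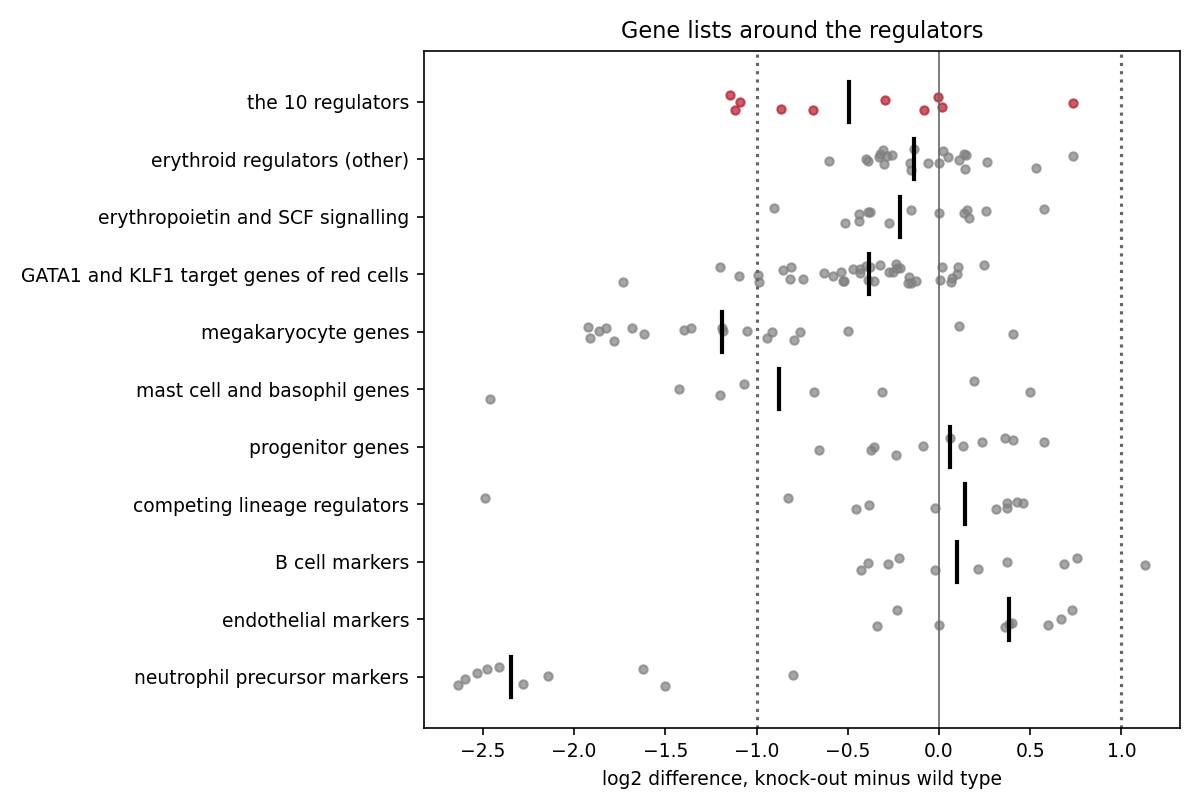
Log2 difference, knock-out minus wild type (horizontal axis), of each measured gene of the lists named at the left, with the list median as a vertical bar and 2-fold as dotted lines. Genes on 1 array alone are at their bound. The medians of the megakaryocyte (−1.19), mast cell and basophil (−0.88) and neutrophil precursor (−2.35) lists lie below that of the 10 regulators (−0.49).

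Markers of other cell types also moved between these arrays, and their part in the members' values was not tested. Mast cell and basophil genes, which share Gata2 and Gata1 with the erythroid lineage, were at least 2-fold lower in 4 of 8 measured, with a median of −0.88. The count was 2 to 4 and the median −0.97 to −0.50 over 11 settings, and without scaling they were 1 and −0.35. The number measured also changed with the filter. With only probes above background on both arrays, 2 of 6 were 2-fold lower, with a median of −0.50. With no filter on dim probes, 4 of 11 were, with a median of −0.68. Their summed signals, before scaling, were 3416 in knock-out-labelled and 3435 in wild-type spleen, of which Gata3, a gene that T cells also express, made up 1853 and 1129. Prss34, a basophil protease gene, cleared background in wild-type spleen only, where it was at least 5.52-fold higher, and so did Mcpt8, of the same kind, at least 2.10-fold. Hdc, for histamine synthesis, was at −1.42 and the mast cell tryptase gene Tpsb2 at −1.20. Il4 at −0.68 and the mast cell gene Cpa3 at −0.31 were lower by less. The mast cell protease gene Mcpt4, at 0.50 ± 0.24, and Gata3, at 0.19, went the other way. Neutrophil precursor markers were at least 2-fold lower in 9 of 10, with summed signals of 17824 in knock-out-labelled and 65982 in wild-type spleen. Acinar pancreas markers were at least 2-fold higher in 12 of 12, with summed signals of 256519 in knock-out-labelled and 19096 in wild-type spleen, and all 12 cleared background on both arrays. B cell markers, of cells that also express Bcl11a, had 1 of 10 at least 2-fold higher (Fcer2a, the low-affinity IgE receptor gene, 1.13), 0 lower and a median of 0.10, and 0 were 2-fold higher with normexp and 3 without scaling. Plasmacytoid dendritic cell markers had 1 of 8 at least 2-fold higher (Klk1, a kallikrein gene, 1.15) and 0 at least 2-fold lower. Klk1 stood apart from the other 7, which were all below 0 in the main setting. The median of this list was −0.34, and it ran from −0.44 to −0.0006 over 11 settings. Endothelial markers had 0 of 9 past 2-fold (3 higher without scaling) and a median of 0.39. T cell markers had 1 of 9 at least 2-fold lower (the adaptor gene Lat, −1.77) and a median of −0.20. The T cell markers other than Lat lay between −0.46 (Cd3d) and 0.27 (Cd4). Of 15 proliferation genes 14 were below 0, with a median of −0.42. Among them 1 was at least 2-fold lower (the mitotic kinase gene Aurka, −1.02), and 0 to 2 were over 11 settings. Progenitor genes had 0 of 11 past 2-fold (1 higher without scaling) and a median of 0.06. The medians of the T cell and progenitor lists changed sign within the 11 settings, where the T cell median ran from −0.29 to 0.01 and the progenitor median from −0.09 to 0.21. Without scaling the medians of the plasmacytoid dendritic cell, T cell and proliferation lists were positive, at 0.18, 0.32 and 0.11. As to the targeted gene, Loxl3 was read by 1 probe with signals of 125 in knock-out-labelled and 117 in wild-type spleen, a difference of −0.43 ± 0.29. That is within 2 errors of no difference, and the labels do not say whether the probe lies in the deleted part, so the group is called knock-out-labelled.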

How the data were processed

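Total RNA of fresh spleen was labelled with Cy3, per the labels' protocols, and run on 2 one-colour Agilent arrays that shared 1 scan, per the file headers. The deposited scanner files give each spot's intensity on a linear scale, made with Feature Extraction 11.0.1.1 and the protocol GE1_1100_Jul11 on a design of build mm9, per the file headers. The value table the authors deposited holds log2 values with a median of 6.71 in both columns, and its rows matched quantile-normalized log2 processed signals to within 0.1 for all but 33 of 39420 probes. Its steps are read from its values.

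Spots flagged as outliers, 132 on the knock-out-labelled and 110 on the wild-type array, were left out of 43020 non-control spots, spots of a probe were averaged as log2 values, and each array's 75th percentile was subtracted. Well above background is the software's own call, needed for at least 50% of a probe's spots. Accessions, without versions, named 27226 of 39420 probes through RefSeq of GRCm38.p6. A gene is its brightest probe above background on at least 1 array. One that cleared background on a single array has a bound, against the higher of the dim probe and the lowest signal above background there.

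With 0 residual degrees of freedom no p-value was computed. Members and lists were chosen with earlier results of these data known. All members, Loxl3, up to 3 genes per direction at 2-fold from each list, and some list genes that a member is known to bind or regulate were named. The other list genes named, among them the remaining mast cell and basophil genes, partners of a member and list extremes such as Stat5a, were chosen after their values were seen. Normexp (limma 3.58.1, R 4.3.3) used spot medians, since the files hold no mean signal column, and the loess trend came from statsmodels 0.14.6. Scaling and the 2-fold call were run on simulated data with known changes. Background calls there were the same on both arrays, so the bounds were not tested.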

Additional observations from a re-analysis of the deposited data

How the results depend on the processing

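The directions of Tal1, Gata1, Nfe2, Gfi1b, Epor, Lmo2 and Klf1 were kept under all 11 alternatives chosen at the outset. Those of Zfpm1, Bcl11a and Gata2, whose values lay within 1 error of 0, were not. Choices among probes cannot move a member read by 1 probe. The count of 2-fold lower members, 3 in the main setting, was 1 with scaling on probes above background on both arrays, where Gata1 and Nfe2 were at −0.97 and −0.94, and 0 without scaling. Without scaling, added after the data were seen, 1 member was 2-fold higher and the members' median was 0.029, with Lmo2 at 0.23. Klf1 was at 0.50 with normexp and Lmo2 at −0.08 with the loess trend removed. The moves without scaling follow from its construction, and the cause of the normexp value was not tested. Over all genes, 290 higher and 271 lower in the main setting became 150 and 177 with normexp, 445 and 182 with scaling on probes above background on both arrays, 242 and 379 with array medians and 552 and 660 with no filter on dim probes. No paired analysis was possible because each group has 1 array. With 1 array per group no replicate could be left out.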
